A study of Mus musculus with 10 samples.

Results

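The enzymes of glycolysis and gluconeogenesis were taken from the deposited gene table as the genes that carry an Ensembl identifier and the KEGG pathway term ko00010. This rule gave 82 members of the 29583 genes and loci in the table, of which 22036 have an Ensembl identifier. A further 9 newly assembled loci carry the same term and are not members. The members cover the steps from glucose to lactate, the gluconeogenic enzymes that turn the chain around, the pyruvate dehydrogenase complex, and the alcohol and aldehyde dehydrogenases that KEGG draws on the same map. Of the 82, 68 stand in lists of enzymes written step by step and 14 carry the term without being in such a list.

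RNA was sequenced from MC3T3-E1 cells, an osteoblast precursor line that came from the skull of a newborn C57BL/6 mouse, although the source field of the labels names bone marrow mesenchymal stem cells. Cells of the third passage were kept with β-ecdysterone, a plant sterol, at 0, 100, 150 or 200 μM for 5 or 10 days, and the study asked how the compound acts on bone-forming cells and at which dose. The deposited table holds 1 library for each dose and day, which gives 6 treated libraries, 3 on each day, and 2 libraries at 0 μM. The methods state n = 3 for RNA extraction, and whether extracts were pooled is not said. A pair of libraries labelled untreated (A-5 and B-4) has no time. The 3 doses therefore serve as the replicates of treated cells, and replicates and p-values here measure the spread between these libraries.

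The library at 0 μM held 48951468 counts on day 5 and 31300928 counts on day 10. Treated libraries on day 5 held 29833654 counts at 100 μM, 57220036 at 150 μM and 29637936 at 200 μM. On day 10 they held 27108562, 58218009 and 53666325 counts at the same doses. A-5 held 28772087 counts and B-4 held 29789271. Levels are given below as FPKM, the authors' values scaled to transcript length and library size. Differences come from edgeR on the deposited counts, as log2 fold changes of the 6 treated libraries against the 2 at 0 μM with day as a covariate. Rises and falls are on the log2 scale throughout. A gene passed at a Benjamini-Hochberg adjusted p under 0.05 over all genes tested.

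Glycolysis splits glucose into pyruvate, with an investment of ATP in the upper steps and a return of ATP and NADH in the lower steps, and lactate dehydrogenase reoxidises the NADH. Most steps can be run by several isoenzymes that differ in tissue and regulation, and gluconeogenesis reuses the reversible steps and bypasses the irreversible ones with enzymes of its own. Osteoblasts are known for a high rate of glycolysis with lactate output, and Gapdh and Pgk1 are often used as reference genes in expression work.

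Osteoblast markers were present. All 10 genes of the marker list had counts, led by Col1a2, and their summed level was 4388 FPKM and 5126 FPKM at 0 μM on days 5 and 10, between 3433 and 6163 FPKM in treated cells, 4047 FPKM in A-5 and 2805 FPKM in B-4. Of these, 3 rose in treated cells (Runx2, Sp7 and Ibsp, which mark commitment to the osteoblast lineage and the start of mineralisation), 2 fell (Spp1 and Dmp1) and 4 did not pass, where 22.6% of all genes tested rose and 20.8% fell. Alpl, at 0 FPKM and 0.0225 FPKM at 0 μM, entered the test only through the treated libraries and is not counted.

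The untreated libraries stand apart from the 0 μM libraries in this pathway. From hexokinase to lactate dehydrogenase the 32 members of the chain, counted without Adpgk, Minpp1 and Bpgm, summed to 4288 FPKM on day 5 and 4570 FPKM on day 10 at 0 μM. In treated cells the sum was 1496 FPKM, 1481 FPKM and 1485 FPKM on day 5 and 1435 FPKM, 1352 FPKM and 1463 FPKM on day 10 at 100, 150 and 200 μM. A-5 had 2992 FPKM and B-4 had 1897 FPKM, so both lie between the 0 μM and the treated libraries, B-4 closer to the treated. The choice between 0 μM and untreated libraries as the control therefore changes the size of most differences below, and both sets of values are given for the members the results turn on.

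The chain of glycolysis was lower in treated cells than at 0 μM at nearly every step. Of the 57 members tested, 28 were lower in treated cells (49.1%) and 7 were higher (12.3%), against 20.8% lower and 22.6% higher among all 16794 genes tested. Beyond 2-fold, 15 members were lower, where 5.98% of all genes tested were, and 5 were higher, where 13.4% were. Of the higher members, Hk3 and Fbp1 have 0 counts at 0 μM and could enter the test only through the treated libraries, so they add no support to the count. With at least 10 counts required in every library, 2 members (Eno3 and Galm) were higher beyond 2-fold. The median log2 fold change was -0.28 for the members tested and 0.05 for all genes. All 6 treated libraries lay below both 0 μM libraries in 30 members and above both in 9, against 25.7% and 27.0% of all genes. Hk3 and Fbp1 are among the 9 and add no support there either. The 25 members not tested had too few counts, 3 of them (Aldh1b1, Fbp2 and Gm12117) with 0 counts in every library. Without the 0 μM library of day 10 the count of lower members was 15, with 1 control library remaining. The count of higher members was 4 without either 0 μM library or without 150 μM on day 10, and that of higher members beyond 2-fold was 3 without 150 μM on day 5, 150 μM on day 10 or 200 μM on day 10. In the fits that gave 3, Eno3, Galm and Adh1 stayed called, and Hk3 and Fbp1 did not. Against A-5 and B-4 instead of 0 μM, 17 of 54 members tested were lower, where 10.1% of all genes were, and 4 were lower beyond 2-fold, where 2.87% were. Of the members called against 0 μM, 16 were called there, 13 were not (Hk1, Gpi1, Pfkm, Pfkp, Pgam1, Eno3, Eno1b, Galm, Pgm1, Adh7, Aldh9a1, Aldh16a1 and Gm3839), 3 turned direction without passing (Adh1, Minpp1 and Uevld) and 3 were not tested (Hk3, Fbp1 and Aldoc). Aldoa (-0.76), Pfkl (-0.94), Eno1 (-0.83), Pkm (-0.87), Ldha (-0.77) and Aldh3a1 (-2.67) kept the call at smaller changes, and the member higher beyond 2-fold there was Adpgk. The RNA is from whole cultures, so fewer cells expressing an enzyme and less of its RNA per cell cannot be told apart.

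Within the chain, 24 of 32 members were tested, and 16 were lower, 2 (Eno3 and Hk3) were higher and 6 did not pass. Hk3 entered the test only through the treated libraries, so it adds no support to the higher ones. Beside this count and those of single steps below stand 20.8% lower and 22.6% higher among all genes tested. The chain made up 1.18% and 1.23% of the FPKM sum at 0 μM, between 0.331% and 0.420% in treated cells, 0.801% in A-5 and 0.480% in B-4. The plot of FPKM along the chain shows the main isoenzyme of each step in all 10 libraries.

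**Figure D1:**
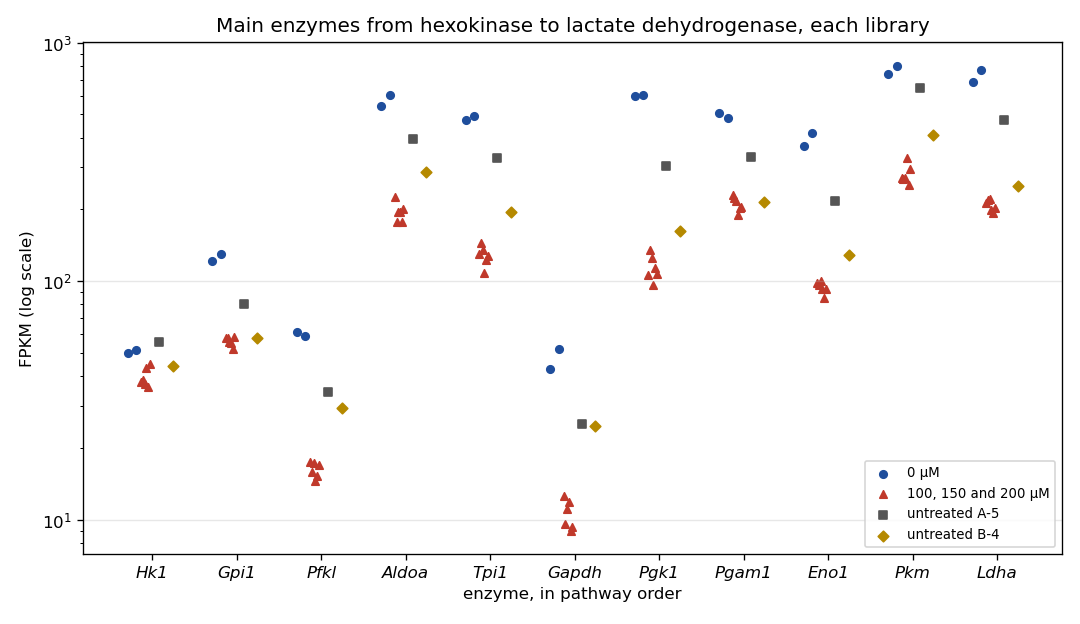
FPKM on a log axis of the main isoenzymes from hexokinase to lactate dehydrogenase, 1 point for each of the 10 libraries, with 0 μM, treated and untreated libraries marked. From Gpi1 to Ldha the 6 treated points lie below the 2 points at 0 μM at each of these steps, and Gapdh (8.98 to 52.2 FPKM) lies under its neighbours Tpi1 (109 to 491 FPKM) and Pgk1 (96.2 to 605 FPKM).

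Hk1 and Hk2 differed little from 0 μM. Hexokinases trap glucose in the cell as glucose 6-phosphate, and 4 of the 6 members of this step were tested, with 2 higher, 1 lower and 1 not passed. Of the 2 higher, Hk3 entered the test only through the treated libraries and adds no support. Hk1, the broadly expressed form bound to mitochondria, was at 49.8 FPKM and 51.4 FPKM at 0 μM and between 35.9 and 44.8 FPKM in treated cells with a median of 38.0 FPKM, and at 55.7 FPKM in A-5 and 44.0 FPKM in B-4. All 6 treated libraries lay below both 0 μM libraries, and Hk1 fell by 0.31 on the log2 scale (SE 0.10, adjusted p = 0.0314). Its call was lost without 0 μM on day 5 (adjusted p = 0.268) or day 10 (0.0732) and without 150 μM (0.0576) or 200 μM (0.0589) on day 5. It was also lost with no day covariate (0.0565), with at least 10 counts in every library (0.0602), with Ensembl genes only (0.0533) and against A-5 and B-4 (0.139). Hk2, the insulin-regulated form, was at 7.04 FPKM and 7.58 FPKM at 0 μM and between 6.05 and 8.65 FPKM in treated cells, with a log2 fold change of 0.08 (adjusted p = 0.672) and groups that overlapped. Adpgk, which uses ADP in place of ATP, was at 11.02 FPKM and 11.6 FPKM at 0 μM and between 11.9 and 15.3 FPKM in treated cells (log2 fold change 0.34, SE 0.11, adjusted p = 0.0364). This call too was lost without either 0 μM library (adjusted p = 0.174 and 0.176), without 150 μM (0.0558) or 200 μM (0.0675) on day 5 and without 150 μM on day 10 (0.0553), and with library totals (0.0781) and limma on log2(FPKM + 1) (0.102) or log2(FPKM + 0.1) (0.0942). Adpgk was at 7.25 FPKM in A-5 and 6.78 FPKM in B-4, and against these its log2 fold change was 1.0 (adjusted p = 0.00189).

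Hk3, the hexokinase known from blood cells, had 0 counts in both 0 μM libraries. It had 1, 10 and 4 counts on day 5 and 16, 17 and 14 counts on day 10 at 100, 150 and 200 μM, 0 in A-5 and 2 in B-4. The mean of the treated libraries was 2.72 times a floor of 3 counts in each 0 μM library, at a level of at most 0.16 FPKM. This ratio leaves out the counting error of the treated libraries. Hk3 entered the test only through the treated libraries, so no p is given. Opposite this step stands glucose 6-phosphatase, which releases free glucose. Its ubiquitous form G6pc3 was at 11.9 FPKM and 13.6 FPKM at 0 μM and between 12.2 and 18.2 FPKM in treated cells, where it did not pass (log2 fold change 0.34, adjusted p = 0.0721). The liver form and its relative G6pc2 had too few counts to be tested.

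Below the entry step the fall against 0 μM was larger. Gpi1, which turns glucose 6-phosphate into fructose 6-phosphate, was at 122 FPKM and 130.0 FPKM at 0 μM and between 52.0 and 58.2 FPKM in treated cells, with a median of 56.5 FPKM. It was at 80.0 FPKM in A-5 and 58.0 FPKM in B-4, so B-4 fell within the treated range. Gpi1 fell by 1.12 on the log2 scale (SE 0.08, adjusted p = 7.16e-06), in 6 of 6 treated libraries, and against the untreated libraries its log2 fold change was -0.26 (adjusted p = 0.122).

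Phosphofructokinase commits the sugar to glycolysis, and its 3 isoenzymes were all lower, by unequal amounts. Pfkl, the liver-type subunit, was at 61.2 FPKM and 58.9 FPKM at 0 μM, between 14.5 and 17.4 FPKM in treated cells with a median of 16.4 FPKM, and at 34.2 FPKM and 29.5 FPKM in A-5 and B-4. The treated, untreated and 0 μM libraries formed 3 levels without overlap, and Pfkl fell by 1.84 (SE 0.08, adjusted p = 6.22e-07). Pfkm, the muscle-type subunit, was at 22.7 FPKM and 23.0 FPKM at 0 μM and between 16.7 and 21.3 FPKM in treated cells, where it fell by 0.25 (SE 0.09, adjusted p = 0.0486). DESeq2 gave Pfkm an adjusted p of 0.0537, and leaving out any library other than 200 μM on day 10 ended the call, with adjusted p from 0.0582 without 200 μM on day 5 to 0.311 without 0 μM on day 5. The Pfkm call was also lost with at least 1 count in total (0.0672) or 10 counts in every library (0.103), with no day covariate (0.0618) and with Ensembl genes only (0.0895). Pfkp, the platelet-type subunit, was at 16.0 FPKM and 19.9 FPKM at 0 μM and between 9.41 and 15.3 FPKM in treated cells, where it fell by 0.52 (SE 0.16, adjusted p = 0.0279). It was not called without 0 μM on day 10 (log2 fold change -0.18, adjusted p = 0.538) or without 200 μM on day 10 (adjusted p = 0.0610).

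The share of each subunit in the summed phosphofructokinase FPKM shifted with these unequal changes. Pfkl made up 61.3% and 57.9% at 0 μM and 34.4% ± 0.529 (SD, n = 6) in treated cells, and 48.0% and 47.4% in A-5 and B-4. Pfkm made up 22.6% at 0 μM on average and 39.7% ± 3.90 (SD, n = 6) in treated cells, and Pfkp 17.8% and 25.9%. By FPKM Pfkl led at 0 μM, and Pfkm led in the treated libraries except 100 μM on day 5, where Pfkl had 35.2% and Pfkm 33.9%. By CPM, which is not per length, Pfkl also led on average in treated cells, with 37.1% against 32.8%. For such single shares, 6 against 2 libraries allow no smaller two-sided exact permutation p than 0.0714.

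The reverse of this step, catalysed by fructose bisphosphatase, appeared at a trace level. Fbp1, the liver form, had 0 counts in both 0 μM libraries and in both untreated libraries. In treated cells it had 5, 16 and 9 counts on day 5 and 8, 15 and 4 counts on day 10 at 100, 150 and 200 μM, at most 0.171 FPKM. The mean of the treated libraries was 2.46 times a floor of 3 counts in each 0 μM library, without the counting error of the treated libraries. Like Hk3, Fbp1 entered the test only through the treated libraries. Fbp2, the muscle form, had 0 counts in every library.

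Aldolase cleaves fructose 1,6-bisphosphate into the triose phosphates. Aldoa, the form of muscle and most cells, was at 542 FPKM and 602 FPKM at 0 μM, between 177 and 225 FPKM in treated cells with a median of 194 FPKM, and at 393 FPKM and 287 FPKM in A-5 and B-4. Every treated library lay below every other, and Aldoa fell by 1.52 (SE 0.11, adjusted p = 8.73e-06). Aldoc, the brain form, had 45 and 16 counts at 0 μM and between 0 and 16 counts in treated cells, and 4 in A-5 and 0 in B-4, within the treated range. It fell by 2.55 (SE 0.69, adjusted p = 0.0135), with a log2 fold change of -3.95 (adjusted p = 0.0211) where 0 μM on day 5 was left out and -1.69 (adjusted p = 0.166) where 0 μM on day 10 was. With no day covariate its adjusted p was 0.0618. The testis forms Aldoart1 and Aldoart2 were not tested.

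Tpi1 interconverts the triose phosphates and is the only gene of its step. It was at 474 FPKM and 491 FPKM at 0 μM and between 109 and 144 FPKM in treated cells, with a median of 128 FPKM, and at 329 FPKM and 195 FPKM in A-5 and B-4. No treated library reached any of the other 4, and Tpi1 fell by 1.87 (SE 0.08, adjusted p = 6.22e-07).

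Gapdh, which oxidises glyceraldehyde 3-phosphate and makes the NADH of glycolysis, was at 42.9 FPKM and 52.2 FPKM at 0 μM. It was between 8.98 and 12.6 FPKM in treated cells with a median of 10.3 FPKM, and at 25.1 FPKM in A-5 and 24.8 FPKM in B-4. All 6 treated libraries were lower than the other 4, and Gapdh fell by 2.25 (SE 0.13, adjusted p = 2.83e-06). Gapdhs, the sperm form, was at 0.890 FPKM and 0.675 FPKM at 0 μM and at a treated median of 1.0 FPKM (log2 fold change 0.32, adjusted p = 0.345). Its share of the step was 1.65% at 0 μM and 8.80% ± 1.68 (SD, n = 6) in treated cells.

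Pgk1, which makes the first ATP that glycolysis returns, fell furthest against 0 μM among the abundant enzymes. It was at 596 FPKM and 605 FPKM at 0 μM and between 96.2 and 135 FPKM in treated cells, with a median of 110.3 FPKM, and at 304 FPKM and 163 FPKM in A-5 and B-4. The treated libraries lay below the other 4, and Pgk1 fell by 2.36 (SE 0.10, adjusted p = 6.22e-07), a 5.12-fold difference. Against the untreated libraries its log2 fold change was -0.999 (adjusted p = 0.00676). Pgk2, the form of sperm, was not tested.

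Phosphoglycerate mutase moves the phosphate from carbon to carbon. Pgam1, its broadly expressed form, was at 505 FPKM and 484 FPKM at 0 μM, between 189.7 and 229.7 FPKM in treated cells with a median of 210.0 FPKM, and at 332 FPKM and 215 FPKM in A-5 and B-4. B-4 again fell within the treated range, and Pgam1 fell by 1.18 against 0 μM (SE 0.08, adjusted p = 6.46e-06) and gave -0.34 against the untreated libraries (adjusted p = 0.116). Minpp1, a phosphatase that also acts on bisphosphoglycerate, was at 35.3 FPKM and 33.7 FPKM at 0 μM and between 23.4 and 27.4 FPKM in treated cells, and fell by 0.35 (SE 0.07, adjusted p = 0.00337). Minpp1 was at 28.2 FPKM in A-5 and 22.9 FPKM in B-4, and against these its log2 fold change turned to 0.061 (adjusted p = 0.659). The muscle form Pgam2 and Bpgm, the enzyme that makes bisphosphoglycerate in red cells, did not pass.

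Enolase, which makes phosphoenolpyruvate, was a step where abundant isoenzymes moved in opposite directions, each beyond 2-fold. Of its 5 members, 3 were lower, 1 was higher and 1 did not pass. Eno1, the form of most cells, was at 367 FPKM and 420.0 FPKM at 0 μM and between 84.8 and 99.9 FPKM in treated cells, with a median of 94.4 FPKM, and at 218 FPKM and 129 FPKM in A-5 and B-4. It lay lower in every treated library than in any other and fell by 2.01 (SE 0.09, adjusted p = 6.22e-07). Eno3, the muscle form, was at 8.75 FPKM and 8.44 FPKM at 0 μM, between 26.5 and 40.7 FPKM in treated cells with a median of 31.5 FPKM, and at 20.8 FPKM and 22.7 FPKM in A-5 and B-4. All 6 treated libraries were above the other 4, and Eno3 rose by 1.97 (SE 0.20, adjusted p = 5.28e-05). With the untreated libraries as the control its log2 fold change was 0.59 (adjusted p = 0.0675). Eno2, the neuronal form, was at 2.76 FPKM and 2.71 FPKM at 0 μM and between 1.11 and 1.72 FPKM in treated cells, and fell by 1.04 (SE 0.20, adjusted p = 0.00249). Eno1b, an Eno1-like gene, fell by 1.58 (SE 0.16, adjusted p = 5.05e-05), from 30.7 FPKM and 28.3 FPKM at 0 μM to a treated median of 9.70 FPKM. It was at 18.5 FPKM in A-5, and at 7.82 FPKM in B-4 it lay within the treated range, and against both its log2 fold change was -0.42 (adjusted p = 0.298).

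The make-up of the enolase pool shifted accordingly. Eno3 made up 2.14% and 1.84% of enolase FPKM at 0 μM and 23.3% ± 3.04 (SD, n = 6) in treated cells, from 20.5% to 28.8%, and 7.95% and 14.1% in A-5 and B-4. Eno1 made up 90.5% at 0 μM on average and 68.7% ± 2.21 (SD, n = 6) in treated cells. Eno1b made up 6.83% at 0 μM on average and 6.98% in treated cells on average. Of the 50-base windows in the exons of Eno1b 85.2% also occur in another of 9 annotated genes, and of those of Eno1 49.5%, against 0 for Eno3. The part of shared sequence in the split between Eno1 and Eno1b was not tested. All 12 genes of a list of skeletal muscle markers had counts in some library and 7 were tested. Of these, Actn3 and Des rose, where 22.6% of all genes tested did, 3 did not pass, and Ckm and Tnnc2 entered the test only through the treated libraries. The sum of the list was 3.07 FPKM and 2.52 FPKM at 0 μM, between 61.7 and 108 FPKM in treated cells, 3.81 FPKM in A-5 and 66.8 FPKM in B-4. Actn3 was the most abundant of them, and the muscle-defining factors Myod1 and Myog were at most at 0.0141 FPKM and 0.0481 FPKM in any library. The part of muscle-type expression in the Eno3 values was not tested.

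Pyruvate kinase makes pyruvate and the last ATP of the chain. Pkm, which encodes the M1 and M2 enzymes, was at 738 FPKM and 801 FPKM at 0 μM, between 252 and 328 FPKM in treated cells with a median of 271 FPKM, and at 643 FPKM and 408 FPKM in A-5 and B-4. Treated libraries did not overlap with the others, and Pkm fell by 1.41 (SE 0.11, adjusted p = 1.62e-05). The table counts per gene, so the M1 and M2 transcripts cannot be told apart. Pklr, the form of liver and red cells, was not tested.

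Lactate dehydrogenase closes the chain. Ldha, whose subunit favours lactate, was at 684 FPKM and 770.3 FPKM at 0 μM, between 194 and 222 FPKM in treated cells with a median of 208 FPKM, and at 475 FPKM and 251 FPKM in A-5 and B-4. The treated libraries were below the other 4, and Ldha fell by 1.75 (SE 0.09, adjusted p = 1.45e-06). Ldhb, whose subunit favours pyruvate, was at 14.1 FPKM and 10.9 FPKM at 0 μM and between 10.8 and 15.5 FPKM in treated cells, with overlapping groups and a log2 fold change of 0.15 (adjusted p = 0.504). Ldhb made up 1.70% of the step at 0 μM and 6.01% ± 1.04 (SD, n = 6) in treated cells, and Ldha 98.2% and 93.7%.

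**Figure D2:**
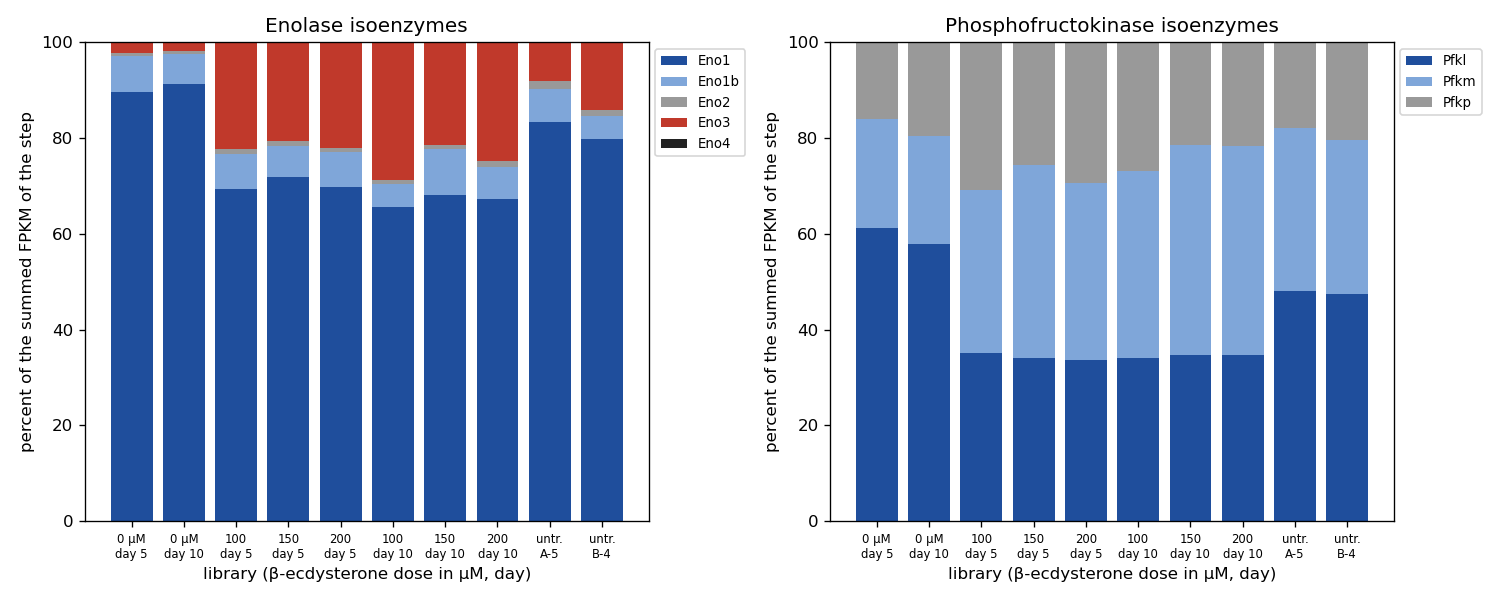
Share of each isoenzyme in the summed FPKM of enolase and of phosphofructokinase, in percent, as stacked bars for each of the 10 libraries. Pfkl falls from 61.3% and 57.9% at 0 μM to 34.4% on average in treated cells, and Eno3 takes 20.5% to 28.8% of enolase there.

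Gapdh was the least abundant of the main enzymes from aldolase to lactate dehydrogenase in every library. Divided by the FPKM of Gapdh in the same library, Tpi1 just before it was between 7.87 and 15.0 across the 10 libraries, and Pgk1 just after it between 6.57 and 14.0. Aldoa was between 11.5 and 21.7 times Gapdh, Pgam1 between 8.68 and 23.1, Eno1 between 5.19 and 10.0, Pkm between 15.4 and 31.9 and Ldha between 10.1 and 22.8. So a gene often used as an abundant reference ranked between 1094 and 6126 by FPKM among the 22036 Ensembl genes, while Tpi1 ranked between 90 and 363. The low level was already in the counts, with 3106 and 2412 for Gapdh at 0 μM against 42236 and 27281 for Tpi1. Counts per FPKM in the 0 μM library of day 5 were 72.5 for Gapdh and 89.1 for Tpi1.

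Stretches shared with other genes were counted as a property of the annotation. Of all 50-base windows in the annotated exons of Gapdh, 58.4% occurred in another annotated gene, and 222 other genes held at least 1 of them. For Tpi1 6.83% were shared with 2 other genes, for Aldoa 8.46% with 6, for Ldha 10.4% with 14, for Pkm 23.7% with 8, for Gpi1 24.5% with 122 and for Pgam1 41.5% with 4. Pgk1 had 68% of its windows in common with 5 other genes at 596 FPKM. The part of shared sequence in the level of Gapdh was not tested. Gm3839, an annotated Gapdh-like gene among the members, shared 59.8% of its windows, had 57 and 42 counts at 0 μM and 5 to 38 in treated cells, and fell by 1.21 (SE 0.40, adjusted p = 0.0324). That call was lost without 0 μM on day 5 (adjusted p = 0.0700) or day 10 (0.281), without 150 μM (0.0546) or 200 μM (0.0529) on day 5 and without 150 μM on day 10 (0.0608).

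By size of change Gapdh was close to its neighbours, unlike its level. Its log2 fold change of -2.25 lay between those of Tpi1 (-1.87) and Pgk1 (-2.36). On day 5 Gapdh gave -2.10 and on day 10 it gave -2.40, where Tpi1 gave -1.79 and -1.96 and Pgk1 gave -2.29 and -2.43. With the untreated libraries as the control Gapdh gave -1.30 (adjusted p = 0.00125), Tpi1 -1.0 (adjusted p = 0.00333) and Pgk1 -0.999. Between the 0 μM libraries Gapdh was 1.25 times as high on day 10 as on day 5, the largest ratio of the main enzymes, and Pgk1 1.02 times. The normalised count of Gapdh was 61.3 CPM (95% Poisson interval 59.1 to 63.5) on day 5 and 76.4 CPM (73.4 to 79.5) on day 10, so the difference exceeded counting error, and with 1 library each it was not tested.

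Beyond pyruvate, the pyruvate dehydrogenase complex, which feeds the tricarboxylic acid cycle, had 3 of 4 tested members lower, against 20.8% of all genes tested. Pdha1, its catalytic alpha subunit, was at 179 FPKM and 185 FPKM at 0 μM and between 108 and 148 FPKM in treated cells, and fell by 0.47 (SE 0.10, adjusted p = 0.00410). The beta subunit Pdhb fell by 0.30 (adjusted p = 0.0337) and the acetyltransferase Dlat by 0.29 (adjusted p = 0.0134). Dld, the dehydrogenase shared with other complexes, was at 28.9 FPKM and 25.5 FPKM at 0 μM and between 23.6 and 32.4 FPKM in treated cells, with overlap (log2 fold change 0.05, adjusted p = 0.744). Without the 0 μM library of day 10 none of these passed, with adjusted p = 0.113 for Pdha1, 0.0770 for Pdhb and 0.174 for Dlat. Pdhb was also not called without 0 μM on day 5 (adjusted p = 0.295), without 100 μM on day 5 (0.0590) and without 200 μM on day 5 (0.0630), nor with at least 10 counts in every library (0.0694) or Ensembl genes only (0.0608). Against A-5 and B-4 the log2 fold changes were -0.58 for Pdha1 (adjusted p = 0.0157), -0.65 for Pdhb (0.00348) and -0.54 for Dlat (0.00906).

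Carboxykinase and the acetate-using enzyme did not pass against 0 μM. Pck2, the mitochondrial carboxykinase that makes phosphoenolpyruvate from oxaloacetate, was at 16.1 FPKM and 17.4 FPKM at 0 μM and between 11.7 and 17.4 FPKM in treated cells, with overlap (log2 fold change -0.13, adjusted p = 0.380). Its cytosolic relative Pck1 was not tested. Pck2 was lower in the untreated libraries, at 8.99 FPKM and 8.20 FPKM, and against them it passed as higher in treated cells (log2 fold change 0.84, adjusted p = 0.00539). Acss2, which makes acetyl-CoA from acetate, was at 7.20 FPKM and 8.07 FPKM at 0 μM and between 5.10 and 6.96 FPKM in treated cells (log2 fold change -0.28, adjusted p = 0.0826). It was at 12.0 FPKM in A-5 and 9.04 FPKM in B-4, and passed as lower against these (-0.75, adjusted p = 0.00609).

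Alcohol and aldehyde enzymes split by gene. Adh1, the classical alcohol and retinol dehydrogenase, was at 0.315 FPKM and 0.111 FPKM at 0 μM and between 1.39 and 2.14 FPKM in treated cells with a median of 1.89 FPKM. It rose by 2.98 (SE 0.41, adjusted p = 0.000322) without overlap between treated and 0 μM, while A-5 was at 0.879 FPKM and B-4, at 3.00 FPKM, was above all treated libraries. The rise was 4.23 without 0 μM on day 5 and 2.27 without 0 μM on day 10, where Adh1 had 27 and 6 counts. Against A-5 and B-4 the log2 fold change of Adh1 was -0.090 (adjusted p = 0.901). Akr1a1, the aldehyde reductase and most abundant of this group, was at 209 FPKM and 208 FPKM at 0 μM and between 138 and 166 FPKM in treated cells, and fell by 0.37 (SE 0.09, adjusted p = 0.00717). The Akr1a1 call needed both 0 μM libraries, with adjusted p = 0.0524 without day 5 and 0.0722 without day 10. Adh7 fell by 0.73 (SE 0.22, adjusted p = 0.0228), from 10.9 FPKM and 10.4 FPKM at 0 μM to between 3.96 and 8.54 FPKM, and was not called without either 0 μM library (adjusted p = 0.121 and 0.119). Adh5, the formaldehyde-clearing form, was at 52.0 FPKM and 52.2 FPKM at 0 μM and between 38.1 and 48.8 FPKM in treated cells and did not pass (log2 fold change -0.19, adjusted p = 0.128).

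Aldh3a1, which clears aldehydes from lipid peroxidation, fell the most of all members tested. It was at 8.12 FPKM and 7.58 FPKM at 0 μM and between 0.427 and 1.23 FPKM in treated cells with a median of 0.650 FPKM, and at 8.24 FPKM in A-5 and 1.53 FPKM in B-4. The treated libraries lay below the other 4, A-5 was at the 0 μM level and B-4 near the treated, and Aldh3a1 fell by 3.36 (SE 0.32, adjusted p = 3.88e-05). Of the other 5 aldehyde dehydrogenases tested, Aldh9a1 fell by 0.37 (SE 0.10, adjusted p = 0.0170), and was not called when 0 μM was left out on day 5 (adjusted p = 0.192) or day 10 (0.050). Aldh2, the mitochondrial acetaldehyde enzyme, was at 87.2 FPKM and 87.9 FPKM at 0 μM and between 68.6 and 79.1 FPKM in treated cells, and like Aldh3a2, Aldh3b1 and Aldh7a1 it did not pass, with log2 fold changes of these 4 between -0.16 for Aldh2 and 0.28 for Aldh3b1. Against A-5 and B-4 Aldh2 (-0.61, adjusted p = 0.00736) and Aldh3b1 (0.46, adjusted p = 0.0413) passed.

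At the branch to glycogen and galactose the members moved apart. Galm, the mutarotase that readies galactose for entry, was at 8.66 FPKM and 10.1 FPKM at 0 μM and between 19.1 and 22.0 FPKM in treated cells with a median of 19.99 FPKM. A-5 was at 7.29 FPKM and B-4 at 24.7 FPKM, on opposite sides of the treated range. Galm rose by 1.16 (SE 0.09, adjusted p = 1.18e-05), and with the untreated libraries as the control its log2 fold change was 0.34 (adjusted p = 0.530). Pgm1, which links glucose 1-phosphate of glycogen to glucose 6-phosphate, was at 30.0 FPKM and 33.7 FPKM at 0 μM and between 15.0 and 24.3 FPKM in treated cells, and fell by 0.67 (SE 0.18, adjusted p = 0.0145). Its adjusted p was 0.0879 without 0 μM on day 5 and 0.0892 without 0 μM on day 10. Pgm2 did not pass, at 16.3 FPKM and 15.0 FPKM at 0 μM and between 10.1 and 13.9 FPKM in treated cells (adjusted p = 0.0816), and passed as lower against A-5 and B-4 (-0.49, adjusted p = 0.0201).

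**Figure D3:**
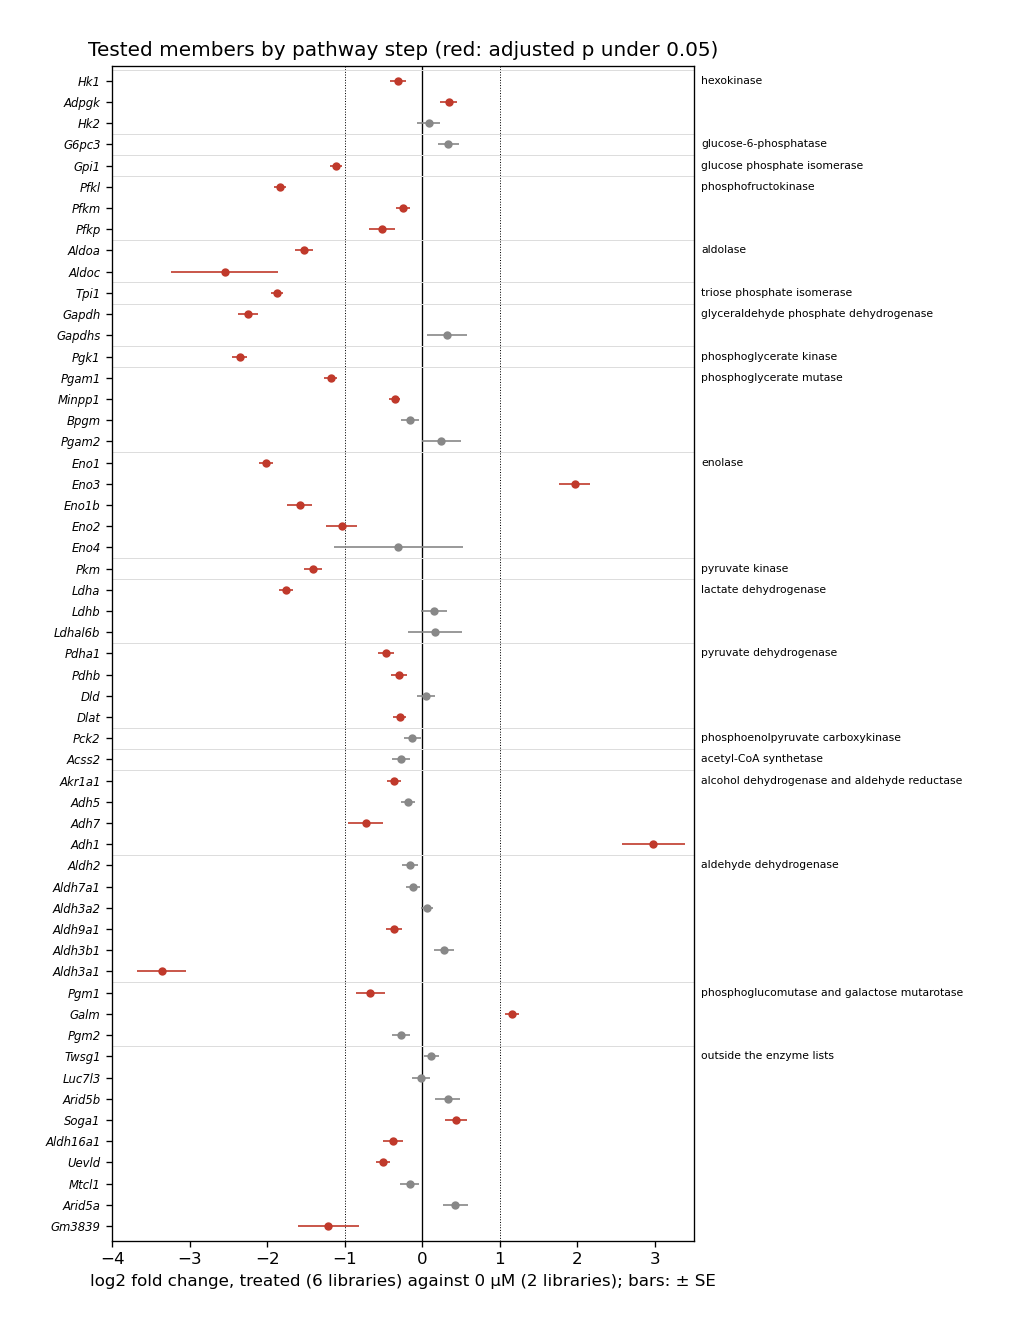
Log2 fold change of treated against 0 μM for the members tested, grouped by step, with bars for ± SE and without Hk3 and Fbp1, which have 0 counts at 0 μM. Nearly all abundant members of the chain lie left of 0, down to -2.36 for Pgk1, while Eno3 (1.97), Galm (1.16) and Adh1 (2.98) lie to the right.

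Among the 14 members outside the step lists, 9 were tested, with 1 higher, 3 lower and 5 not passed. Of all genes tested, 22.6% were higher and 20.8% lower. Several of the 14 members are not glycolytic enzymes by name, such as the regulatory genes Arid5b, Luc7l3 and Twsg1. Arid5b, a chromatin regulator, was at 20.8 FPKM and 20.4 FPKM at 0 μM and between 19.1 and 33.0 FPKM in treated cells, and did not pass (adjusted p = 0.123). Luc7l3, a splicing factor, and Twsg1, a secreted BMP-binding protein, did not pass either, with log2 fold changes of -0.02 and 0.12. Uevld, whose protein has a lactate dehydrogenase-like domain, fell by 0.51 (SE 0.09, adjusted p = 0.00168), and Aldh16a1 fell by 0.38 (adjusted p = 0.0366). Aldh16a1 was not called without 0 μM on day 10 (adjusted p = 0.452), without 100 μM (0.0521) or 150 μM (0.0646) on day 5, or without 150 μM (0.0654) or 200 μM (0.0757) on day 10, nor with at least 10 counts in every library (0.0621) or Ensembl genes only (0.0537). Soga1 was the member that rose (log2 fold change 0.43, SE 0.14, adjusted p = 0.0282), with 9.58 FPKM and 10.1 FPKM at 0 μM and 9.81 to 14.8 FPKM in treated cells, so the groups overlapped. The Soga1 call was lost without 0 μM on day 5 (adjusted p = 0.253), without 0 μM on day 10 (0.0629) and without 200 μM on day 5 (0.0540), and with library totals (0.0567) and limma on log2(FPKM + 1) (0.0576) or log2(FPKM + 0.1) (0.050).

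Differences between days and doses passed in few genes of the table. On day 5, 16 of 60 members tested were lower and 4 higher against 0 μM, where 10.7% and 12.0% of all 17799 genes tested were. On day 10, 20 members were lower and 4 higher, where 14.2% and 15.8% of all genes were. The counts of higher members may hold Hk3 and Fbp1, which could enter the test only through the treated libraries and add no support. Both days share the fitted spread, which comes from the treated libraries. In edgeR's test of the difference between these changes 0 of 60 members passed, 2 had an unadjusted p under 0.05, and 0.0112% of all genes passed. They were Adh1 (difference 1.96, adjusted p = 0.444) and Pfkp (difference -0.67, adjusted p = 0.572). Pfkp had a log2 fold change of -0.17 on day 5 and -0.84 on day 10, and Eno3 had 1.81 and 2.13. Between day 10 and day 5 in treated cells, edgeR called 0 of 55 members tested, where 2.8% of all 16020 genes passed. There 6 members had an unadjusted p under 0.05 (10.9%, against 18.3% of all genes), DESeq2 called 0, edgeR with dose as a block called 0, and edgeR with library totals in place of TMM called 2. For the trend with dose among treated libraries, edgeR called 0 of 57 members, 0 had an unadjusted p under 0.05, and 0.006% of all genes passed.

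Members beyond 2-fold lie on several chromosomes. Positions are from GENCODE M21 on GRCm38 and are given for 14 of them, without Adh1, Aldoc, Eno1b, Gm3839, Hk3 and Fbp1. Tpi1 (ENSMUSG00000023456, chr6:124810586-124814296, minus strand), Eno2 (ENSMUSG00000004267, chr6:124760053-124769673, minus strand) and Gapdh (ENSMUSG00000057666, chr6:125161715-125166467, minus strand) share a region of chromosome 6. Aldoa (ENSMUSG00000030695, chr7:126795234-126800751, minus strand), Ldha (ENSMUSG00000063229, chr7:46841475-46855627, plus strand) and Gpi1 (ENSMUSG00000036427, chr7:34201330-34230336, minus strand) share chromosome 7 and lie far apart. Eno3 (ENSMUSG00000060600, chr11:70657202-70662513, plus strand) and Aldh3a1 (ENSMUSG00000019102, chr11:61207537-61218421, plus strand) lie on chromosome 11 and moved in opposite directions. Pgk1 (ENSMUSG00000062070) is at chrX:106187100-106203699 on the plus strand, Pfkl (ENSMUSG00000020277) at chr10:77986947-78010083 on the minus strand and Pgam1 (ENSMUSG00000011752) at chr19:41911923-41918660 on the plus strand. Eno1 (ENSMUSG00000063524) is at chr4:150236721-150248879 on the plus strand, Pkm (ENSMUSG00000032294) at chr9:59656368-59679375 on the plus strand and Galm (ENSMUSG00000035473) at chr17:80127471-80185101 on the plus strand.

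Promoters of the members were searched for the letters ACGTG and GCGTG, on both strands, which are the core of the hypoxia response element known from glycolytic genes. The windows run from 250 bases before to 50 bases after each start and come from RefSeq on GRCm38.p6. RefSeq held 82 windows for 66 of the members. ACGTG stood in 27 of them (32.9%) against 19.6% of all 32851 windows, and GCGTG in 39 (47.6%) against 32.4%. At least 1 of the motifs stood in 54 (65.9%) against 43.8%. Among members lower beyond 2-fold it was 14 of 19 windows (73.7%), from 12 genes. For the other members tested it was 31 of 44 windows (70.5%), from 38 genes. These sets of windows held the letters about as often. Windows of the same gene can overlap, as in Aldoa and Eno1, so the same copy can be counted more than once. A match is a description of the letters in the window and no sign of a factor bound there.

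The 250 bases before the start are printed for 5 of the enzymes that fell beyond 2-fold, as examples of how the motif copies are spaced, with each copy of either motif in capitals. Copies on the other strand appear as their reverse complement. They are Pgk1 (chrX:106186850-106187099, plus strand), Ldha (chr7:46845554-46845803, plus strand), Pgam1 (chr19:41911621-41911870, plus strand), Aldoa (chr7:126799255-126799504, minus strand) and Gapdh (chr6:125165774-125166023, minus strand), each written 5′ to 3′ along its gene, from RefSeq on GRCm38.p6. Pgk1 has 2 copies of ACGTG, Ldha has 5 where its palindromic copies are counted on both strands, Pgam1 has 1 and 2 copies of GCGTG, Aldoa has 1 copy of ACGTG, and Gapdh has 2 copies of GCGTG. These counts are for the 250 bases printed. In the 50 bases after the start, which are not printed, Gapdh has 1 copy of ACGTG and Ldha 2 copies of GCGTG. The whole windows of Tpi1, Gpi1 and Eno2 held neither. Aldoa, Aldoc, Eno1, Ldha and Pkm have more than 1 start in RefSeq, and the windows printed for Aldoa and Ldha are 1 choice among these. A further window of Aldoa (chr7:126800398-126800697) and a window of Pkm (chr9:59656326-59656625) also held neither motif. A further window of Ldha (chr7:46846832-46847131) held 2 copies of GCGTG and no ACGTG.
Pgk1: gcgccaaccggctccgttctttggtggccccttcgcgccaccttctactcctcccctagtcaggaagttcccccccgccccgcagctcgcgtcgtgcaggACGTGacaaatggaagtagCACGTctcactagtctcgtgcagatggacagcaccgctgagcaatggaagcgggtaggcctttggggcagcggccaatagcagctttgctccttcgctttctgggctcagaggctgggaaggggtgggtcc
Ldha: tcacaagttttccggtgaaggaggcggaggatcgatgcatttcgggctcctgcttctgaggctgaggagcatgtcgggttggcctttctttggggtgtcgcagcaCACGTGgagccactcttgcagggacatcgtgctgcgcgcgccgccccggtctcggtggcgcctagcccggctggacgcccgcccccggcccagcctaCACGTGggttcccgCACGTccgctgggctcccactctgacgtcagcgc
Pgam1: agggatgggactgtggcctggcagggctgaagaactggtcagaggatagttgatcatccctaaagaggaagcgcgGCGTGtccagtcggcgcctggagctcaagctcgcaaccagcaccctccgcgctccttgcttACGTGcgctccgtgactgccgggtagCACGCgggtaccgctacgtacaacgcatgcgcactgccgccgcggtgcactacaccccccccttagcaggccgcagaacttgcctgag
Aldoa: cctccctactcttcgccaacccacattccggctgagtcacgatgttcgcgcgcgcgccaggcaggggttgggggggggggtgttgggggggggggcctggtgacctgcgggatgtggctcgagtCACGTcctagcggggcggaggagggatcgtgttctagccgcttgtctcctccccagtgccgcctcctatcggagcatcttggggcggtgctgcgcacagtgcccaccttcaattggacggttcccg
Gapdh: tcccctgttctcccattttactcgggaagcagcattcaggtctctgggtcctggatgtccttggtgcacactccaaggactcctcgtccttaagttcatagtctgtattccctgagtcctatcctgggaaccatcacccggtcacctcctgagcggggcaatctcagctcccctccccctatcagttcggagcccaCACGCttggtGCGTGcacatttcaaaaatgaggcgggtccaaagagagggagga

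Genes around the pathway were taken from lists, whose counts stand beside 22.6% higher and 20.8% lower among all genes tested. Glucose and lactate transporters had 3 of 11 tested members higher and 3 lower, with a median log2 fold change of 0.15. Slc2a1, the main basal glucose transporter, was at 27.2 FPKM and 24.7 FPKM at 0 μM and between 10.3 and 15.1 FPKM in treated cells, and fell by 1.01 (SE 0.15, adjusted p = 0.000534). Slc16a1, which carries lactate, fell by 1.18 (SE 0.12, adjusted p = 6.59e-05), and the lysosomal transporter Slc2a6 fell by 1.87 (SE 0.20, adjusted p = 8.30e-05). Slc2a9, which carries urate, rose by 0.73 (SE 0.18, adjusted p = 0.00819). Slc16a3, which also carries lactate, and Slc2a10 passed as higher too.

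Regulators of glycolysis had 5 of 12 tested members higher and 3 lower, with a median of -0.26. Pdk1, which switches pyruvate dehydrogenase off, was at 13.0 FPKM and 13.6 FPKM at 0 μM and between 2.75 and 4.20 FPKM in treated cells, and fell by 1.91 (SE 0.11, adjusted p = 3.05e-06). Pdp1, the phosphatase that switches the same complex on, was at 10.9 FPKM and 9.41 FPKM at 0 μM and between 23.0 and 46.4 FPKM in treated cells, and rose by 1.76 (SE 0.16, adjusted p = 3.42e-05). A second kinase, Pdk4, rose by 0.65 (SE 0.15, adjusted p = 0.00658), and Txnip, which restrains glucose uptake, rose by 0.86 (SE 0.20, adjusted p = 0.00602).

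The pentose phosphate pathway, which branches off at glucose 6-phosphate and makes NADPH and ribose, had 4 of 8 tested members lower and 0 higher by edgeR, with a median of -0.42. Pgd was at 57.4 FPKM and 62.6 FPKM at 0 μM and between 18.1 and 25.6 FPKM in treated cells, and fell by 1.42 (SE 0.12, adjusted p = 1.82e-05). Tkt fell by 0.96, G6pdx, the entry enzyme, by 0.60 and Taldo1 by 0.47. In glycogen synthesis and breakdown, 2 of 11 tested members were higher, of which Ppp1r3c entered the test only through the treated libraries, and 2 lower (median -0.09), with the synthase Gys1 falling by 0.64 (adjusted p = 0.00107) and the phosphorylase kinase subunit Phkb rising by 0.62 (adjusted p = 0.000631). The tricarboxylic acid cycle had 2 of 22 members higher and 13 lower, with a median of -0.28. Idh2, the mitochondrial NADP-dependent isocitrate dehydrogenase, rose by 1.24 (SE 0.20, adjusted p = 0.000972), from 64.4 FPKM and 68.5 FPKM at 0 μM to between 103 and 199 FPKM, while its cytosolic relative Idh1 fell by 0.74 (SE 0.14, adjusted p = 0.00194).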

How the data were processed

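The authors deposited counts of reads per gene, without normalization, for 10 libraries. The FPKM values in the same table were computed by the authors per length of transcript and number of fragments. The submitters' processing notes name HISAT2 2.0.4 and GATK 3.2-2 without giving their roles, and the counting program and genome build are not given in the sources used here. The table's own comparison columns hold edgeR log2 fold changes and p-values between single libraries, and they were not used.

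The 6 treated libraries were compared with the 2 at 0 μM with edgeR 4.0.16 in R 4.3.3 (quasi-likelihood test, TMM, filterByExpr, day as covariate), on the whole table. Passed means an adjusted p under 0.05, and beyond 2-fold means passed with a log2 fold change beyond 1. The same test without a covariate compared days in the treated libraries, a model of group by day tested the difference between days, and a slope tested dose with day as covariate. The method was tested on simulated data. A count of 0 allows up to 3 counts per library, which at 0 μM is at most 0.0950 CPM. Intervals and floors cover counting error only.

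Alternatives were DESeq2 1.42.0, limma 3.58.1 on log2(FPKM + 1) and log2(FPKM + 0.1), other scalings and filters, no day covariate, dose as a block, depth class as covariate, Ensembl genes only, glmTreat, the untreated libraries as controls, and each library left out in turn. The untreated libraries stayed out of the main comparisons because they have no time.

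Members and lists were chosen with earlier results of these data known. Genes were named by rule. These are, for each step, the members with a mean of at least 10 FPKM or else the highest, every member that passed beyond 2-fold, and Gapdh with its neighbours, and from other lists at most 4 genes with the largest changes at a mean of at least 5 CPM. Further members (Gapdhs, Pgam2, Bpgm, Adh7, Uevld, Aldh16a1 and those not tested) were named after their values were seen, so that every step is accounted for. The transporters Slc16a3 and Slc2a10 were also named after their direction was seen. Gene positions are from GENCODE M21 (GRCm38) by Ensembl identifier, and promoter sequences are from RefSeq (GRCm38.p6).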

Additional observations from a re-analysis of the deposited data

Results flagged for a closer look

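A newly assembled locus that carries the KEGG term of glyceraldehyde 3-phosphate dehydrogenase, and so lies outside the members with an Ensembl identifier, was higher in treated cells, opposite to Gapdh. It was at 0.0991 FPKM and 0.152 FPKM at 0 μM on days 5 and 10, between 0.535 and 1.03 FPKM in treated cells with a median of 0.719 FPKM, and at 0.0108 FPKM in A-5 and 0.0187 FPKM in B-4 (Mus_musculus_newGene_8195). It had 8 and 7 counts at 0 μM on days 5 and 10, and between 18 and 64 counts in treated cells. At these counts it reached the filter's cutoff only in the treated libraries, so no p is given. Its log2 fold change by edgeR was 2.34. Of 46 named genes, none had a treated library apart from the other 5 by Dixon's criterion, where chance would give about 1 in 20.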

How the results depend on the processing

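Gpi1, Pfkl, Aldoa, Tpi1, Gapdh, Pgk1, Pgam1, Eno1, Pkm, Ldha, Eno3 and Aldh3a1 kept their direction under all alternatives that were read gene by gene. Their calls held under these too, except with A-5 and B-4 instead of 0 μM, where Gpi1, Pgam1 and Eno3 lost theirs. For glmTreat only counts of members were kept. It gave 10 members lower beyond 2-fold and 4 higher, against 15 and 5. The 5 include Hk3 and Fbp1, which entered the test only through the treated libraries, and the 4 may include them. With DESeq2, 45 of 46 named genes kept direction and call and 1 lost the call. With A-5 and B-4 instead of 0 μM, 21 of 43 kept both, 11 lost the call, 7 turned direction and 4 that had not passed gained a call (Acss2, Aldh2, Aldh3b1 and Pgm2).

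The count of members lower (28) was 17 with A-5 and B-4 instead of 0 μM, and that of members lower beyond 2-fold (15) was 4. The count of members higher (7) was 4 with limma on log2(FPKM + 1) and 4 on log2(FPKM + 0.1). That of members higher beyond 2-fold (5) was 2 with at least 10 counts in every library, 1 with A-5 and B-4 instead of 0 μM, 3 with A-5 added, 1 with both untreated libraries added and 3 with limma on log2(FPKM + 1). Between days in treated cells, library totals gave 2 members. Leaving out 1 library in turn gave 15 to 27 members lower, 4 to 9 higher, 13 to 15 lower beyond 2-fold and 3 to 5 higher beyond 2-fold, and 0 for the tests of day, difference and dose. A lone 0 μM library is assumed to vary like the others.

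Turned direction with A-5 and B-4 instead of 0 μM: Adh1 (log2 fold change -0.090), Aldh7a1 (0.077), Dld (-0.25), Ldhb (-0.23), Minpp1 (0.061), Pck2 (0.84, adjusted p = 0.00539, the one that passed) and Twsg1 (-0.33). Uevld, outside the 43 genes counted, turned to 0.21. With A-5 added to 0 μM, Dld gave -0.029, Luc7l3 0.024, Pck2 0.13 and Twsg1 -0.10. With both untreated libraries added, Dld gave -0.10, Ldhb -0.045, Pck2 0.29 and Twsg1 -0.11. Dld gave -0.00245 with library totals and -0.00138 and -0.00156 with limma on log2(FPKM + 1) and log2(FPKM + 0.1). Luc7l3 gave 0.034 with at least 10 counts in every library and 0.023 with Ensembl genes only. Leaving out 1 library in turn gave -0.086 to 0.19 for Dld, -0.12 to 0.43 for Ldhb, -0.34 to 0.085 for Pck2 and -0.14 to 0.10 for Luc7l3. Of these genes, Adh1, Minpp1 and Uevld had passed against 0 μM. The cause was not tested for any of these.

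Calls lost with A-5 added were those of Aldh9a1 (adjusted p = 0.0612), Aldoc (0.109), Pfkp (0.123) and Aldh16a1 (0.142). Those lost with both untreated libraries added were Pfkm (0.0634), Pgm1 (0.0720), Aldh9a1 (0.0811), Galm (0.113), Gm3839 (0.152), Aldh16a1 (0.225), Pfkp (0.230), Minpp1 (0.283), Adh1 (0.411) and Uevld (0.473). Calls gained were those of Arid5a in 7 alternatives, the untreated ones included, Pgm2 (library totals, depth class), G6pc3 (10 counts in every library, Ensembl genes only, A-5 added), Arid5b (depth class, A-5 added), Aldh2 (both limma fits, both untreated libraries added), Acss2, Aldh3b1 and Pgm2 (A-5 or both added) and Adh5 (both added). With limma on log2(FPKM + 1) Adh1 gave 1.21, Aldh3a1 -2.38, Aldoc -0.31 and Gm3839 -0.38, smaller than by edgeR. With A-5 added Adh1 gave 2.13, and with both added Eno3 gave 1.13.

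As shares of CPM in place of FPKM, Eno1 made up 74.0% and Eno3 18.1% of enolase in treated cells, Pfkl 62.0% at 0 μM and 37.1% in treated cells, Pfkm 18.1% and 32.8%, and Hk1 84.3% and 80.2%, because CPM is not per length. Members with up to 10 counts in every library (24) were too shallow for a statement.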

Other observations

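Of 14 genes often used as references, all tested, 9 were lower in treated cells and 1 was higher, where 20.8% of all genes tested were lower and 22.6% higher, with a median log2 fold change of -0.35. The list shares Gapdh and Pgk1 with the members. Actb was at 945 FPKM and 1186 FPKM at 0 μM and between 439 and 755 FPKM in treated cells, and fell by 0.90 on the log2 scale (SE 0.17, adjusted p = 0.00249 by edgeR). Tfrc fell by 0.97 (SE 0.21, adjusted p = 0.00440). B2m was the gene that rose (0.71). Hprt (-0.02), Tbp (-0.09), Rpl13a (-0.03) and Gusb (0.16) did not pass. Beside Gapdh in the same library, Actb was between 19 and 60.2 times as high by FPKM. Scaled by library totals and not by TMM, the median of all genes was -0.01 and not 0.05.

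Among the newly assembled loci with the pathway's KEGG term, an enolase-like locus was the most abundant. It was at 28.2 FPKM and 31.4 FPKM at 0 μM, between 2.09 and 8.17 FPKM in treated cells with a median of 5.10 FPKM, and at 8.44 FPKM in A-5 and 8.48 FPKM in B-4 (Mus_musculus_newGene_3031). It fell by 2.47 (SE 0.38, adjusted p = 0.000622), with all treated libraries below the other 4. A Gapdh-like locus (Mus_musculus_newGene_3393) fell by 1.16 (adjusted p = 0.0133), and a Gpi-like locus (Mus_musculus_newGene_7744) fell by 1.18 (adjusted p = 0.0158).

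Markers of other cell types were low beside the osteoblast markers. Macrophage markers summed to between 12.1 and 42.5 FPKM across the 10 libraries, nearly all from Lyz2, with Tyrobp at 0. Chondrocyte markers summed to between 12.9 and 32.4 FPKM, led by Sox9. The sum was at most 4.85 FPKM for adipocyte, 1.20 FPKM for endothelial, 0.510 FPKM for erythroid and 0.310 FPKM for hepatocyte markers. In treated cells 1 of 4 tested macrophage, 2 of 3 chondrocyte and 2 of 4 endothelial markers rose, where 22.6% of all genes tested did, and by edgeR 0 of these lists fell. Lep, Cdh5 and Tat entered the test only through the treated libraries and are not counted as rises.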
